A study of Mus musculus with 6 samples.

Results

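The cell cycle and DNA replication genes were 44 named genes, sorted by role into 15 genes of G1 and its exit, 13 of DNA replication and 16 of late S phase, G2 and mitosis. A gene was measured where a probe set of the array named that single symbol, and the brightest probe set over all 6 arrays stood for it. By this rule 43 of the 44 genes were measured, among 19938 genes in all, and Ccnb1 was not analysed here. Expression was profiled on microarrays in primary hepatocytes, cells freshly taken from the liver of 1 wild-type male C57BL/6J mouse, 10 weeks of age. The cells were transfected overnight with 1 nmol of control siRNA (siControl, n = 3) or of siRNA against RetSat, the gene of retinol saturase (siRetSat, n = 3), and both groups shared the same lipid transfection, serum and DMEM with 25 mM glucose for seeding. RNA was collected 48 h after the morning medium change. The samples of a group were independent transfections, so p-values measured the spread between cultures of 1 animal, and the labels name no further RetSat siRNA, so that other actions of this siRNA cannot be told apart from loss of RetSat. Retsat itself read 6.80, 7.04 and 7.01 in siControl and 4.62, 4.83 and 4.81 in siRetSat on the log2 scale. The target was thus lower on every siRetSat array, at 21.8% of siControl (log2 fold change -2.20, SE 0.11, limma adjusted p = 0.000112).

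The cell cycle is entered from quiescence through G1, when D-type cyclins pair with Cdk4 and Cdk6 and phosphorylate the retinoblastoma protein, which releases E2F factors. E2F factors switch on the genes of replication: the MCM helicase that is loaded by Cdc6 and Cdt1, the sliding clamp Pcna and the enzymes that supply nucleotides. Cyclin A, cyclin B and Cdk1 then drive mitosis together with Aurora and Polo kinases, kinesins and the spindle checkpoint. Adult hepatocytes are mostly quiescent, in culture as in the liver, but can re-enter the cycle after loss of liver tissue, a step in which D-type cyclins rise first. In RNA from whole cultures, fewer cells in cycle and less RNA per cycling cell cannot be told apart.

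Promoter sequences are shown for the 3 G1 genes that fell and were in the reference table, and for 1 gene of replication and 1 of mitosis with several motifs, to show the letters searched. Each is the 250 bases before the first listed start, 5′ to 3′ along the gene, from RefSeq on GRCm38.p6. Capitals mark matches on either strand to any of 4 motifs. The E2F motif was searched as TTTCCCGC, TTTGGCGC, TTTCGCGC or TTTGCCGC. The CHR motif, known from mitotic genes, was searched as TTTGAA and in a variant form, TTCGAA. The box bound by NF-Y was searched by its letters CCAAT. The E-box was searched as CACGTG, which reads the same on both strands. The promoter of Cdk4 lies at chr10:127063285-127063534 on the plus strand, that of Cdk6 at chr5:3343643-3343892 on the plus strand, that of E2f8 at chr7:48881597-48881846 on the minus strand, that of Mcm6 at chr1:128359706-128359955 on the minus strand and that of Cdk1 at chr10:69352913-69353162 on the minus strand.
Cdk4: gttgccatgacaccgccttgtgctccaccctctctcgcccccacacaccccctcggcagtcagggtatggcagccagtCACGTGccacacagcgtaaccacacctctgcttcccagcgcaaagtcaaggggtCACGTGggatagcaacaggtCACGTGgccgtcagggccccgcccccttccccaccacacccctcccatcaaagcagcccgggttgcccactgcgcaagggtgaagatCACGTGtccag
Cdk6: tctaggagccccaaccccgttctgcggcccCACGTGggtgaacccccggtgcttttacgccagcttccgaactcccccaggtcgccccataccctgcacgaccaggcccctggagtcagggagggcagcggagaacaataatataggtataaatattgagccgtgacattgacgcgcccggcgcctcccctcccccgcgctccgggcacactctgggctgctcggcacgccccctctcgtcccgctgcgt
E2f8: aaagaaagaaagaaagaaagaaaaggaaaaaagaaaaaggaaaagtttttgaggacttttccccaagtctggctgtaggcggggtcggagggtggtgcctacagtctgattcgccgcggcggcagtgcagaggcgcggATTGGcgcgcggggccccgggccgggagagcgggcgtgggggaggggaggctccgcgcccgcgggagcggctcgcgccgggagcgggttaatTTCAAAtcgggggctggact
Mcm6: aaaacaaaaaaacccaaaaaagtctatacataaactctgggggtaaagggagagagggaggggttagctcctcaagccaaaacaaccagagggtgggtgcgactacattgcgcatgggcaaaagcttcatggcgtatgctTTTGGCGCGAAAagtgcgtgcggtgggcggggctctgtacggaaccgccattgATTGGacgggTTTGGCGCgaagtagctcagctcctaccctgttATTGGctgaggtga
Cdk1: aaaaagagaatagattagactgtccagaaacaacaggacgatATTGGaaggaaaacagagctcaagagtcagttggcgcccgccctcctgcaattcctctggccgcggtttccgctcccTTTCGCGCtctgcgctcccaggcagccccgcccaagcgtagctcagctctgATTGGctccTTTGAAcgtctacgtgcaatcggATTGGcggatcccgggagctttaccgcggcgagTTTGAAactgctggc
The Cdk4 promoter held the E-box 4 times, at 172, 118, 98 and 11 bases before the start, and no other motif searched. At least 4 copies were present in 5 of the 27025 genes with a promoter in the table (0.0185%), and at least 1 copy in 6.86%; the E-box was added to the search after the Cdk4 sequence had been seen. Cdk6 held 1 E-box, 220 bases before its start. E2f8 held a CHR motif at 20 bases and CCAAT at 112 bases. In Mcm6 the E2F motif matched 3 times, at 110, 106 and 47 bases, of which the matches at 110 and 106 overlap on opposite strands, beside CCAAT at 57 and 14 bases. Cdk1 held E2F at 131 bases, CHR at 71 and 15 bases and CCAAT at 208, 80 and 48 bases.

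Among the 34 of 44 genes with a promoter in the table, motif matches were counted by role. E2F matched in 4 of 11 replication genes (Mcm5, Mcm6, Mcm7 and Cdc6), in 2 of 11 G1 genes (Cdk2 and E2f7) and in 1 of 12 mitosis genes (Cdk1), against 2.16% of all genes. CHR matched in 7 of 12 mitosis genes (Mki67, Top2a, Ccnb2, Cdk1, Bub1b, Cdc20 and Kif11), 2 of 11 replication genes and 1 of 11 G1 genes, against 19.6% of all genes. CCAAT matched in 11 of 12 mitosis genes, 8 of 11 replication genes and 5 of 11 G1 genes, against 37.5%. For E2F and CHR the order of the roles was not the same in the wider list of other cell cycle genes described below. There E2F matched in 6 of 22 G1, 7 of 35 replication and 3 of 38 mitosis genes, and CHR in 9, 7 and 13 of them. CCAAT matched in 10, 20 and 26 of them (45.5%, 57.1% and 68.4%), in the same order of roles as above. The E-box was found in Cdk4, Cdk6 and the replication gene Tyms among these 34 genes, against 6.86% of all genes. In the wider list it was found in 4 of 22 G1, 7 of 35 replication and 3 of 38 mitosis genes. Ccnd2 had no entry. A match describes the letters in this window and was not tested as a binding site.

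**Figure D1:**
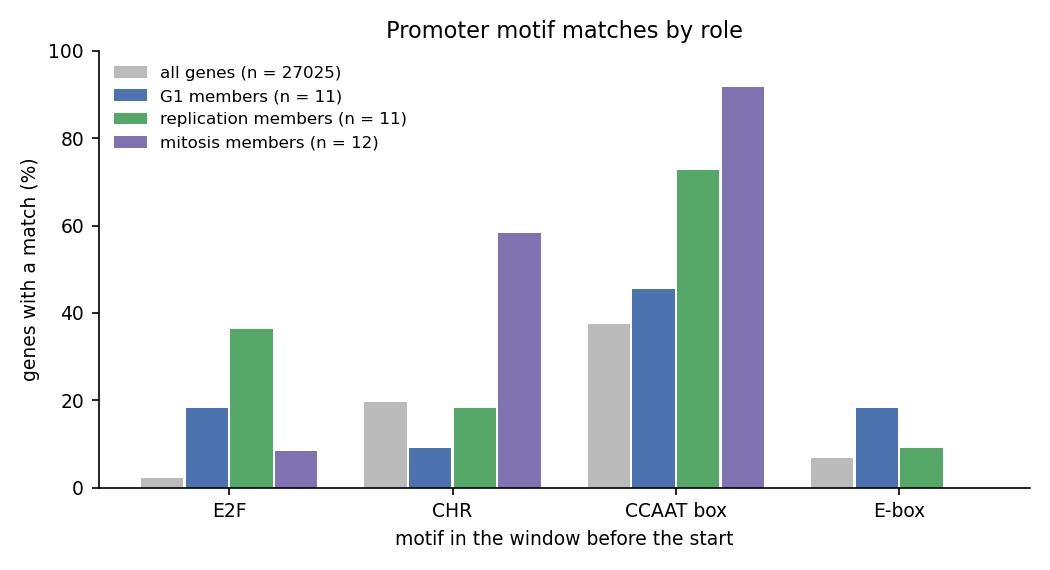
Share of genes (percent) whose 250-base promoter held each motif, for all 27025 genes in the table and for the G1 (11 genes), replication (11) and mitosis (12) genes; bars start at 0. CHR and CCAAT were most frequent in the mitosis genes (58.3% and 91.7%) and E2F in the replication genes (36.4%) among the genes plotted. In the wider list of other cell cycle genes both E2F (27.3%) and CHR (40.9%) were most frequent in G1, and CCAAT in mitosis (68.4%).

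Between siControl and siRetSat 4 of the 43 genes changed, all of them in G1: cyclin D2 rose, while both kinases that D-type cyclins activate, Cdk4 and Cdk6, and the E2F repressor E2f8 fell. Thus 1 gene was higher and 3 were lower (9.3% called), where 3.56% of all 19938 genes passed the same threshold, 1.91% higher and 1.66% lower (limma with Benjamini-Hochberg adjustment over all genes, adjusted p under 0.05). Within G1 the share was 4 of 15 genes (26.7%), against 0 of 13 in replication and 0 of 15 in mitosis. At an unadjusted p under 0.05 in limma the counts were 8, 1 and 0. Together that was 9 of the 43 genes, where 2892 of all 19938 genes met the same cutoff. The median log2 fold change, siRetSat minus siControl, was -0.017 over the 43 genes and 0.0033 over all genes, and the median absolute log2 fold change was 0.29 in G1, 0.07 in replication, 0.09 in mitosis and 0.10 over all genes. The siControl and siRetSat arrays did not overlap for 8 G1 genes, 2 replication genes and 1 mitosis gene, 11 of 43 (25.6%), where 19.5% of all genes did not overlap.

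**Figure D2:**
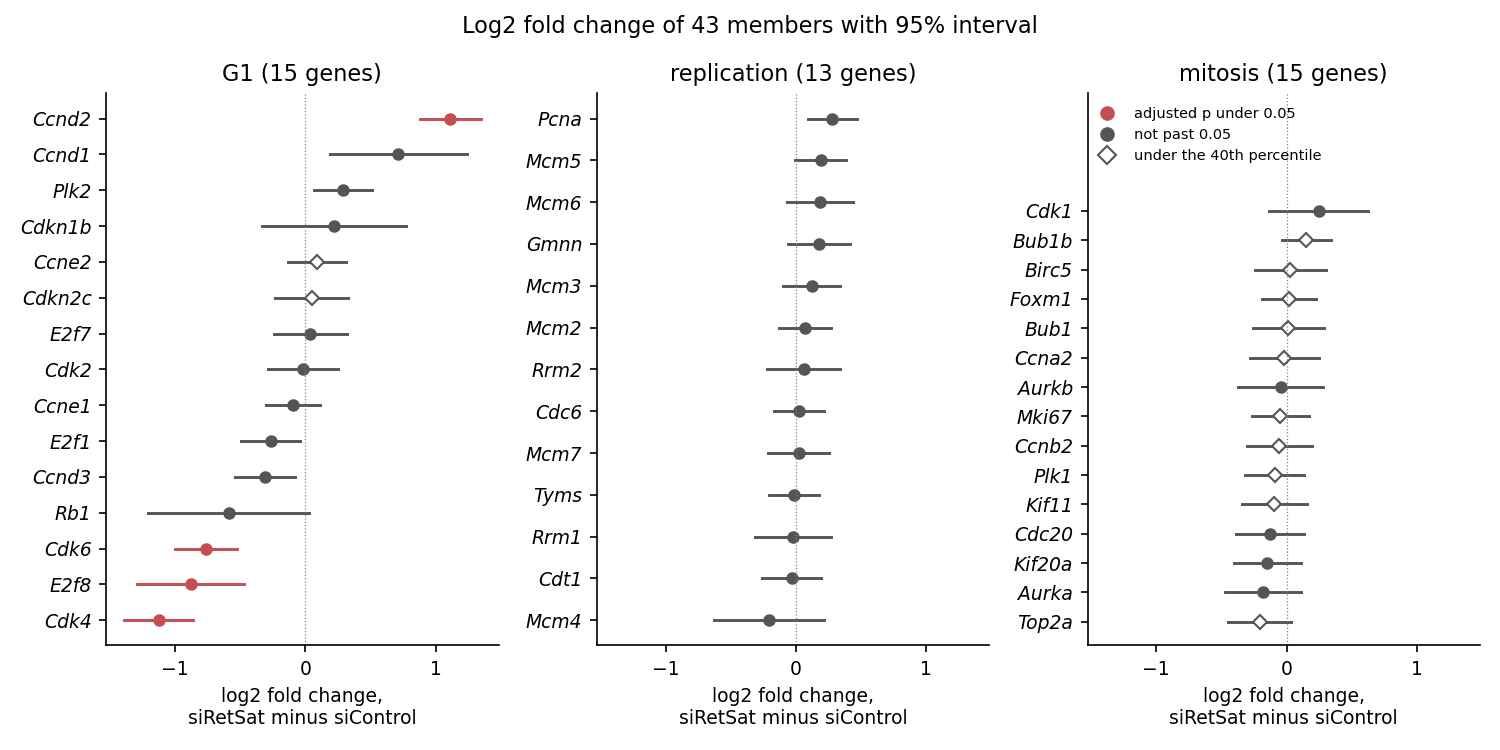
Log2 fold change (siRetSat minus siControl) of 43 genes by role, points with 95% confidence intervals from the limma fit (3 arrays per group); red marks genes with adjusted p under 0.05 and open diamonds genes whose mean lay under the 40th percentile of all genes. The 4 genes called are Ccnd2, Cdk6, E2f8 and Cdk4, all in G1, and every replication and mitosis value lies between -0.21 and 0.28.

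Ccnd2 encodes cyclin D2, which activates Cdk4 and Cdk6 in G1. On the log2 scale it read 7.02, 6.81 and 6.87 in siControl and 7.96, 8.15 and 7.93 in siRetSat. All siRetSat arrays lay above all siControl arrays, with a gap wider than the range within either group. The mean went from 6.90 ± 0.11 to 8.01 ± 0.12 (SD, n = 3 each), a 2.16-fold rise (log2 fold change 1.11, SE 0.10, limma adjusted p = 0.00144). Ccnd1, cyclin D1, the D-type cyclin best known from regenerating liver, read 5.80, 6.32 and 6.21 in siControl and 6.47, 7.34 and 6.66 in siRetSat. The groups did not overlap, but siRetSat 2 stood above the other siRetSat arrays and the difference of 0.71 (SE 0.23) did not pass (limma adjusted p = 0.174). Ccnd3, cyclin D3, had the opposite sign, with 6.04, 6.12 and 6.24 in siControl and 5.96, 5.74 and 5.78 in siRetSat. Here too the groups did not overlap, by 0.08, and the difference of -0.31 (SE 0.10) did not pass (limma adjusted p = 0.179).

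Cdk4, the main partner of the D-type cyclins, had log2 values of 10.94, 11.22 and 11.32 in siControl and 10.02, 9.97 and 10.11 in siRetSat. Every siRetSat array was lower than every siControl array. Expression fell to 45.8% of siControl, from 11.16 ± 0.20 to 10.03 ± 0.07 (log2 fold change -1.13, SE 0.12, limma adjusted p = 0.00241). Cdk6, the related kinase, read 9.46, 9.22 and 9.29 in siControl and 8.43, 8.66 and 8.60 in siRetSat. The groups were again apart, by 0.56, and expression fell to 59.1% of siControl (log2 fold change -0.76, SE 0.10, limma adjusted p = 0.00785). Ccnd2 and Cdk4 thus moved in opposite directions. Without both arrays numbered 2, an omission chosen after seeing the data that left 2 arrays per group, the log2 fold changes were 1.00, -1.07 and -0.86 for Ccnd2, Cdk4 and Cdk6, with limma adjusted p = 0.112, 0.154 and 0.172, and 0 of the 43 genes passed.

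E2f8 encodes an atypical E2F that represses E2F targets and, with E2f7, is known for its part in hepatocyte polyploidy. It read 4.89, 5.42 and 5.61 in siControl and 4.45, 4.56 and 4.27 in siRetSat (log2). The siControl arrays spread over a wider range than the siRetSat arrays, and siRetSat 3 lay under the 40th percentile of all genes (4.33). E2f8 fell from 5.31 ± 0.37 to 4.43 ± 0.15, to 54.3% of siControl (log2 fold change -0.88, SE 0.18, limma adjusted p = 0.0384). The call depended on single arrays. It was lost without siControl 2 (adjusted p = 0.179), siControl 3 (0.110), siRetSat 1 (0.0723), siRetSat 2 (0.113) or siRetSat 3 (0.122), in the same limma test, and kept without siControl 1 (0.00961). E2f7 had a log2 fold change of 0.04 with overlapping arrays (95% interval -0.24 to 0.32, limma adjusted p = 0.960).

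The other G1 genes did not pass. E2f1, an activator of replication genes, read 5.27, 5.10 and 5.29 in siControl and 4.93, 5.07 and 4.86 in siRetSat. The groups were separated by 0.03, with a difference of -0.27 (SE 0.10, limma adjusted p = 0.249). Plk2, a Polo-like kinase of early G1 and a p53 target, read 10.45, 10.40 and 10.57 in siControl and 10.63, 10.85 and 10.81 in siRetSat. These were separated by 0.06, with a difference of 0.29 (SE 0.10, limma adjusted p = 0.197). Rb1, the retinoblastoma protein itself, read 6.04, 6.69 and 6.55 in siControl and 5.22, 6.14 and 6.16 in siRetSat. The array numbered 1 was lowest in both groups, the groups overlapped, and the difference of -0.59 had a 95% interval of -1.20 to 0.03 (limma adjusted p = 0.376). Ccne1 and Ccne2, the E-type cyclins that act at the step into S phase, had differences of -0.09 and 0.09, and their kinase Cdk2 one of -0.02 (95% interval -0.28 to 0.25). The inhibitors Cdkn1b (p27) and Cdkn2c (p18) had differences of 0.22 and 0.05. Cdkn1b spread from 6.84 to 7.48 in siControl and from 6.85 to 7.69 in siRetSat, so that its 95% interval ran from -0.33 to 0.77.

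**Figure D3:**
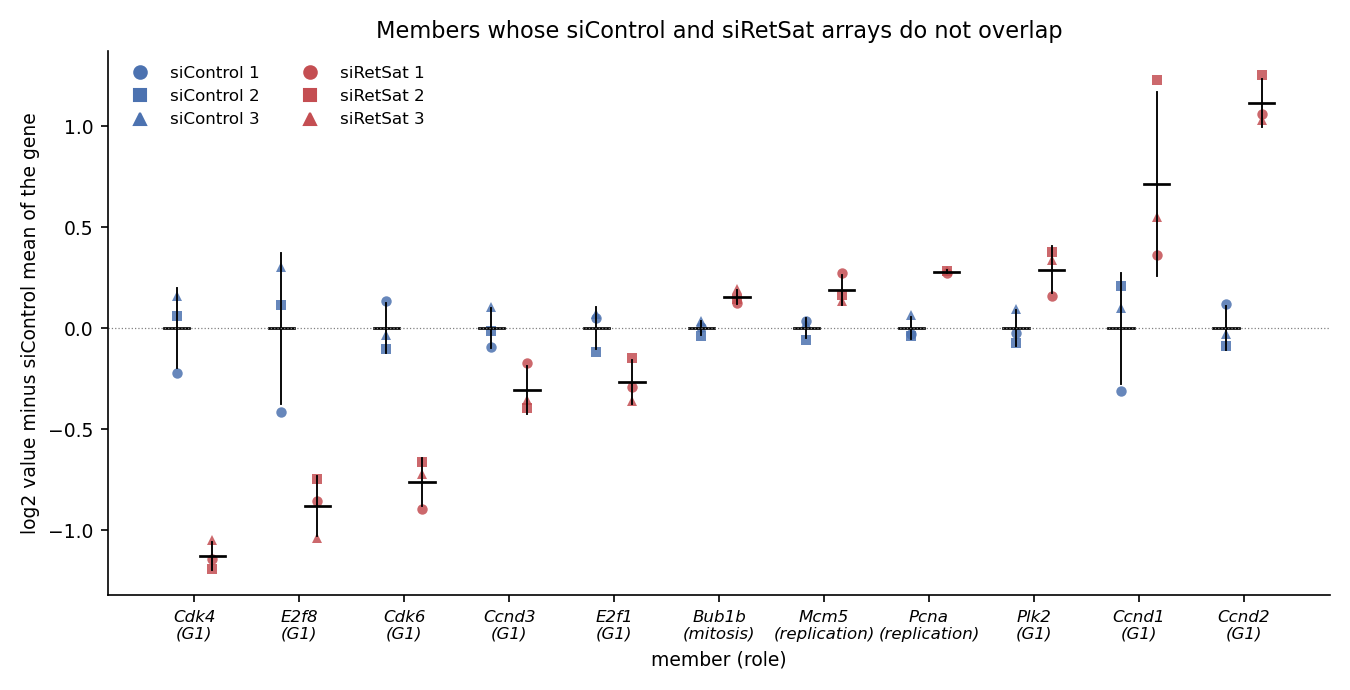
Log2 value on each array minus the siControl mean of the gene. Only the 11 genes whose siControl and siRetSat arrays did not overlap are drawn. siControl is in blue and siRetSat in red, with circle, square and triangle for the arrays numbered 1, 2 and 3. Horizontal bars are means and vertical lines ±1 SD (n = 3). Ccnd2, Cdk4 and Cdk6 show groups apart by 0.91, 0.83 and 0.56, wider than the spread within groups.

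None of the 13 replication genes passed, and none was under the detection limit set below. Their log2 fold changes ran from -0.21 (Mcm4) to 0.28 (Pcna) with a median of 0.06, and their 95% intervals together spanned -0.63 to 0.47, so that no replication gene had an interval that reached a doubling or a halving. Pcna, the sliding clamp of the replicative polymerases, read 9.02, 9.01 and 9.11 in siControl and 9.32, 9.33 and 9.33 in siRetSat. The groups were apart by 0.21 and the siRetSat arrays differed little from each other. The difference of 0.28 (SE 0.08) had an unadjusted p = 0.00836 and did not pass over all genes (limma adjusted p = 0.128). The other Pcna probe set, annotated to the same transcript, gave 0.27. RefSeq also lists Pcna pseudogenes, whose part in either signal was not tested.

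The MCM genes encode the 6 subunits of the replicative helicase. Mcm5 read 5.40, 5.31 and 5.39 in siControl and 5.64, 5.53 and 5.50 in siRetSat, a difference of 0.19 without overlap (limma adjusted p = 0.366). Mcm6 read 7.84, 7.61 and 7.90 against 7.86, 7.95 and 8.09, and Mcm3 6.20, 6.35 and 6.37 against 6.33, 6.42 and 6.53. Both overlapped between groups, with differences of 0.18 and 0.12. The remaining subunits had differences of 0.07 (Mcm2), 0.02 (Mcm7) and -0.21 (Mcm4), so the sign differed among the subunits. Gmnn, geminin, which blocks a further round of licensing, read 4.29, 4.38 and 4.52 in siControl and 4.47, 4.54 and 4.71 in siRetSat. Its groups overlapped by 0.05 (difference 0.18, limma adjusted p = 0.540). The licensing factors Cdc6 and Cdt1 had differences of 0.02 and -0.03. Those of the nucleotide enzymes, thymidylate synthase (Tyms) and the ribonucleotide reductase subunits Rrm1 and Rrm2, were -0.02, -0.02 and 0.06.

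None of the 15 measured mitosis genes passed, and none reached an unadjusted p under 0.05. Their log2 fold changes lay between -0.21 and 0.25, with a median of -0.05. Many were dim. The array gives no detection call, so the 95th percentile of 1190 olfactory and vomeronasal receptor genes, which hepatocytes are not known to use, served as a limit (log2 3.86), and 31.4% of all genes lay under it. Of the mitosis genes, Mki67, Bub1 and Kif11 lay under it, and so did Cdkn2c in G1. With the 40th percentile of all genes as the limit, 10 of 15 mitosis genes, 2 of 15 G1 genes and 0 of 13 replication genes were dim. Mki67 encodes the proliferation marker Ki-67 and read 3.64, 3.68 and 3.55 in siControl and 3.65, 3.44 and 3.64 in siRetSat. The arrays of both groups thus lay under the receptor limit.

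Top2a, the topoisomerase of dividing cells, read 3.98, 4.18 and 4.09 in siControl and 3.71, 3.98 and 3.94 in siRetSat. The highest siRetSat array met the lowest siControl array (difference -0.21, limma adjusted p = 0.449). The other Top2a probe set lay under the receptor limit on every array. It read 2.40, 2.38 and 2.45 in siControl and 2.02, 2.42 and 2.37 in siRetSat (difference -0.14). Bub1b, the checkpoint kinase BubR1, read 4.21, 4.17 and 4.24 in siControl and 4.33, 4.35 and 4.40 in siRetSat. It was the single mitosis gene without overlap (difference 0.15, limma adjusted p = 0.467), and its mean lay under the 40th percentile. Cdk1, the mitotic kinase, read 5.19, 4.83 and 5.33 in siControl and 5.11, 5.62 and 5.36 in siRetSat. siControl 2 was the lowest and siRetSat 2 the highest of the 6 arrays, and without both of them the difference of 0.25 (limma adjusted p = 0.630) became -0.03. Aurka read 5.09, 4.92 and 5.20 against 5.05, 4.66 and 4.96, and Kif20a, a kinesin of cytokinesis, 4.83, 4.51 and 4.87 against 4.56, 4.59 and 4.62. Both overlapped, with differences of -0.18 and -0.15. The differences of the remaining mitosis genes were -0.13 for Cdc20, which activates the anaphase-promoting complex, -0.09 for both Plk1 and Kif11, -0.06 for Ccnb2, -0.05 for Mki67, -0.04 for Aurkb, -0.02 for Ccna2, 0.01 for Bub1, 0.02 for Foxm1, a factor that drives mitotic genes, and 0.03 for Birc5 (survivin).

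To compare the arrays over a whole role, each gene was set as its log2 value minus its mean over the 6 arrays, and averaged over a role. The G1 genes gave -0.06, 0.07 and 0.14 in siControl and -0.16, 0.03 and -0.02 in siRetSat. The array numbered 1 was the lowest in each group, and the groups overlapped; this mean holds both Ccnd2 and the 3 genes that fell. The replication genes gave -0.05, -0.09 and 0.04 against -0.04, 0.06 and 0.08, a difference between group means of 0.07 with SDs of 0.07 in both groups. The mitosis genes gave 0.06, -0.03 and 0.02 against -0.04, -0.0016 and -0.01. In both roles the groups overlapped. Of the 43 genes, 11 were lowest on the array numbered 1 in both groups, among them Ccnd1, Rb1, Mcm4 and Top2a, and 6 were highest on it in both groups, among them Cdc20 and Mcm5. How many of all genes had either pattern was not counted, so neither count describes these genes in particular. What the arrays of a number shared was not tested.

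**Figure D4:**
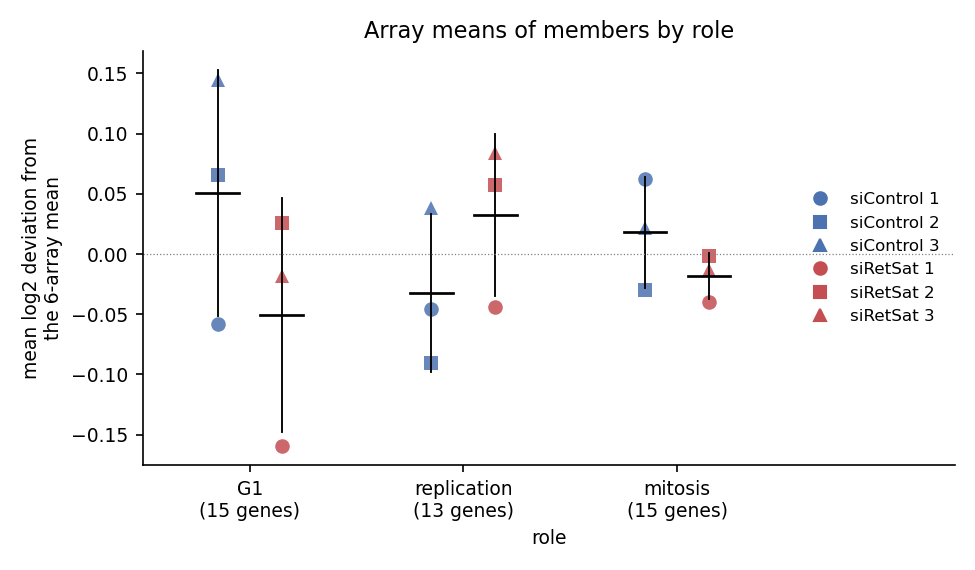
Mean log2 deviation of each array from the 6-array mean, averaged over the genes of a role (15 G1, 13 replication, 15 mitosis), siControl in blue and siRetSat in red with a symbol per array number; bars are group means and lines ±1 SD (n = 3). The siControl and siRetSat points overlap in each role, and siRetSat 1 is the lowest point of G1 at -0.16.

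A wider list of 116 other cell cycle genes, of which 113 were measured, had 1 gene that passed (0.885%). This was E2f4, the E2F that binds with the pocket proteins at repressed promoters in quiescent cells. It read 7.32, 7.15 and 7.08 in siControl and 6.57, 6.35 and 6.51 in siRetSat. The groups were apart by 0.51, and E2f4 fell to 61.3% of siControl (log2 fold change -0.71, SE 0.10, limma adjusted p = 0.0105). The call was lost without siControl 2 or siRetSat 2 (adjusted p = 0.0614 and 0.0637). An unadjusted p under 0.05 in limma was met by 13 of the 113 genes, where 2892 of all 19938 genes met it. Among the 42 other replication genes and the 45 other mitosis genes 0 passed in limma, with 6 and 3 at that unadjusted p. The smallest adjusted p values were those of Rrm2b, a p53-induced ribonucleotide reductase subunit (log2 fold change -0.45, limma adjusted p = 0.0544), and of Ckap2, a spindle protein (0.57, limma adjusted p = 0.0593), both named after their values were seen. The median log2 fold change over the 113 genes was 0.0067, and 14.2% of them did not overlap between groups. Both the share called and the share without overlap were below those of all genes (3.56% and 19.5%).

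Array means of the hepatocyte and interferon marker lists separated the groups, and those of the other 6 lists overlapped; counts are to be read against the 3.56% of all genes called. Of 13 measured hepatocyte markers 4 fell (Ahsg, Cps1, Fgb and Tat, log2 fold changes from -0.82 to -0.42) and 0 rose, and the mean of the list over its genes was 10.3 to 10.5 on the siControl arrays and 10.1 to 10.2 on the siRetSat arrays, so the labelled cell type was present in both groups. Of 17 interferon response genes 14 rose and 0 fell, with array means of 7.29 to 7.41 against 8.57 to 8.88. The macrophage list had 1 riser of 14, Cd14 (0.59), with 9 genes under the receptor limit and array means of 4.44 to 4.55 against 4.53 to 4.68. In the bile duct list Sox9 rose (0.45), 1 of 5, with array means of 5.18 to 5.23 against 5.20 to 5.35. None of 12 stellate cell or fibroblast markers (5.14 to 5.34 against 5.11 to 5.52), 10 endothelial markers (4.85 to 4.96 against 4.89 to 5.01) or 8 lymphocyte markers (3.15 to 3.36 against 3.11 to 3.48, 6 under the receptor limit) passed. Of 13 p53 response genes Phlda3 rose (0.55) and Tnfrsf10b fell by 0.79 on the log2 scale, with array means of 8.12 to 8.22 against 8.06 to 8.22; Cdkn1a, the p53-induced inhibitor of G1 kinases, was not analysed here. The part of these lists in the values of Ccnd2, Cdk4, Cdk6 and E2f8 was not tested.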

How the data were processed

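Affymetrix Mouse Gene 1.0 ST arrays were hybridised with 100 ng of amplified total RNA. The authors deposited 1 table of log2 values per probe set, normalized by RMA (submitters' processing notes: RMA, Partek 6.6), with values from 1.46 to 13.7 and array medians of 4.29 to 4.50. RMA equalizes arrays, so that a shift of all genes would be removed, and compresses dim genes. The number of arrays limits the precision.

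Of 35556 probe sets, 21789 named 1 symbol, 1621 several and 12146 none. Symbols were updated through Entrez identifiers in RefSeq GRCm38.p6 for 21698 of the 21789, and the brightest probe set per gene was kept (19938 genes, 999 with several). All genes were fitted with limma 3.58.1 in R 4.3.3 (lmFit, eBayes, no covariates), siRetSat minus siControl, with Benjamini-Hochberg adjustment and a threshold of 0.05. The script was tested on simulated data. Alternatives were the methods' t-test, the study's cutoffs (unadjusted p of 0.05 with a fold of 1.25), the replicate number as a block, a variance trend, dim filters, other scalings, background subtraction with a floor of 16, the mean of probe sets, array weights and the omission of arrays.

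Genes given array by array were those past the threshold, those whose groups did not overlap and the 5 of each role with the smallest p. Of the other cell cycle genes, those past the threshold were given in the same way. Marker genes past the threshold were named with log2 fold changes or their range, at most 4 per list. The interferon response genes were only counted, with their array means. Rb1 and Mki67 are also given array by array and were chosen after their values were seen. The members and lists were chosen with earlier results of these data known, so their counts are descriptions. No set test was run. Promoters came from the RefSeq table (27025 genes).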

Additional observations from a re-analysis of the deposited data

How the results depend on the processing

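Ccnd2, Cdk4 and Cdk6 kept their direction under all 21 alternatives and passed without any single array (log2 fold changes 1.05 to 1.17, -1.24 to -1.05 and -0.81 to -0.69). By the methods' t-test after adjustment Ccnd2 passed and Cdk4 and Cdk6 did not (adjusted p = 0.0557 and 0.0746); all 3 lost the call without both arrays numbered 2, and Cdk6 also without both numbered 3 (limma adjusted p = 0.107). The 43 genes counted 4 changed, 4 of them in G1. Both counts were 1 by the methods' t-test after Benjamini-Hochberg adjustment, 0 without both arrays numbered 2, 2 without both numbered 3 and 3 to 4 without each array in turn. Array weights gave 9 changed genes, 7 in G1, 1 in replication and 1 in mitosis. Replication had 1 gene, Pcna, with a variance trend or background subtraction, and 0 without any single array. Cdk1 turned to -0.025 without both arrays numbered 2. Over all genes the 710 calls became 1425 by the methods' t-test at the study's cutoffs, 196 by that test after adjustment, 1805 by limma at the study's cutoffs, 1078 with a variance trend, 342 with arrays centred on their medians, 445 after background subtraction, 2905 with array weights, 15 and 111 without both arrays numbered 2 or 3, and 207 to 646 without each array. The other cell cycle genes, with 1 call, had 7, 0 and 10 by the first 3 of these tests, 3 with a variance trend, either dim filter or another quantile normalization, 0 after background subtraction, 15 with array weights, 4, 0 and 0 without both arrays numbered 1, 2 or 3, and 0 to 3 without each array. The range of the mean deviation of the 43 genes over arrays went from 0.153 to 0.363 with arrays centred on their medians, and 12 in place of 4 genes were dim with the 40th percentile as the limit. Of the results for single genes, 365 kept their direction and their side of the threshold, 9 came to pass, 22 no longer passed and 1 reversed. The causes of these shifts were not tested.

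With the replicate number as a block, 1541 of all genes, 6 of the other cell cycle genes and 6 of the 43 genes were called. Among the 43, Ccnd1 and Rb1 were called with the block (limma adjusted p = 0.0112 and 0.0138). In the reported fit without a block they were not (0.174 and 0.376). Ccnd1 also passed with array weights (limma adjusted p = 0.00925) and in limma at the study's cutoffs (unadjusted p = 0.0140). The labels give no shared source for a number. The deviations of same-numbered arrays from their group means correlated at 0.547, 0.0398 and 0.541, so the numbers were not taken as pairs. siRetSat 2 correlated more with siControl 3 (0.247) than with siControl 2. The first principal component of these deviations held 61.5% of their variance and ordered the arrays by number in both groups. Arrays 1, 2 and 3 scored -19.05, 3.66 and 15.38 in siControl and -23.61, 7.26 and 16.35 in siRetSat. A shared effect of the numbers was not tested.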
